A study of Mus musculus with 20 samples.

Results

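The genes described here encode the enzymes of the mevalonate arm of cholesterol synthesis, the stretch that leads from acetyl-CoA to farnesyl diphosphate. They were chosen by name: Acat2, Hmgcs1, Mvk, Pmvk, Mvd, Idi1 and Fdps. The platform annotation gave 1 probe set each to 6 of these 7 genes, among 22206 probe sets that covered 19505 gene symbols, and Acat2 was not analysed here. Liver RNA of 20 mice was hybridised to 1 Affymetrix array per mouse, with 5 mice, labelled as biological replicates, in each of 4 groups. Fasted Mcl1(L-/-) mice had lost the anti-apoptotic gene Mcl1 in the liver and spent 48 h alone in wire-bottom cages without food. Fasted WT mice were kept in the same way and carried the genotype label WT, fed Mcl1(L-/-) mice had lost Mcl1 and had food at all times, and fed WT mice had the WT genotype and food at all times. Water was always available to all 4 groups. For the deletion, mice carrying the floxed allele Mcl1(F/F) received AAV-LP1-Cre, an adeno-associated virus in which the liver-directed promoter LP1 drives Cre recombinase. The labels say neither whether WT mice carried the floxed allele nor whether they received a virus. Effects of the virus or of Cre and those of losing Mcl1 therefore cannot be told apart. Ages and sexes were not given either. The series asks how a fast changes liver gene expression with and without Mcl1.

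The mevalonate arm builds the isoprenoid units from which cells make sterols, ubiquinone, dolichol and the lipid anchors of small GTPases. Acat2 joins acetyl-CoA units in the cytosol, Hmgcs1 makes HMG-CoA from the product, and HMG-CoA is reduced to mevalonate. Mvk and Pmvk phosphorylate mevalonate in succession, Mvd removes a carboxyl group to give isopentenyl diphosphate, Idi1 isomerises that unit, and Fdps condenses the units into farnesyl diphosphate. In liver these genes are known targets of SREBP-2, the product of Srebf2, which is held in the endoplasmic reticulum by Insig proteins when sterols are abundant and released when they are scarce.

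Promoter sequence is shown for 3 of these genes because their start regions differ in the elements that SREBP-2 and its partner factors are known to bind. RefSeq windows on GRCm38.p6, from 250 bases before to 50 bases after an annotated start, were matched for 6 of the 7 genes, with 7 windows in all because Pmvk had 2 starts. No window was matched for Fdps. Each line below holds the 250 bases before the start, 5′ to 3′ on the plus strand, with capitals marking matches to TCACNCCAC (the sterol regulatory element), CCAAT (the NF-Y box) or GGGCGG (the Sp1 box) on either strand. On the opposite strand CCAAT reads ATTGG and GGGCGG reads CCGCCC, and no match overlapped another in these 3 windows.
Hmgcs1, chr13:119690101-119690350: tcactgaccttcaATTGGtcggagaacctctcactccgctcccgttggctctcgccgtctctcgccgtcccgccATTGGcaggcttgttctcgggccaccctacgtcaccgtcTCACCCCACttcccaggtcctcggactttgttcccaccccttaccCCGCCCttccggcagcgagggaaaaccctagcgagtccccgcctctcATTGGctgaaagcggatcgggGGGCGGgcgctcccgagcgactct
Mvk, chr5:114444019-114444268: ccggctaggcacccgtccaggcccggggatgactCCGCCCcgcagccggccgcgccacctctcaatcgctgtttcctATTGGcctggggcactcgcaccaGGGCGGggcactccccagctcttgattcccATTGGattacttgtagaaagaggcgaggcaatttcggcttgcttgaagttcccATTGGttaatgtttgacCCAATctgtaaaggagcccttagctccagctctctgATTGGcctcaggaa
Idi1, chr13:8885356-8885605: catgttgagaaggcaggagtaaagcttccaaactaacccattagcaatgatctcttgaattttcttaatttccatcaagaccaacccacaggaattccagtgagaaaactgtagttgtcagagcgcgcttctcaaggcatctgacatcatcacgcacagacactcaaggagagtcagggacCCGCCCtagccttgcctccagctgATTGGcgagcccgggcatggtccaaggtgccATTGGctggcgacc

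The window of Hmgcs1 held the only match to TCACNCCAC among the members, beginning 137 bases before the start, where 1.24% of all 32851 RefSeq promoter windows of this length held one. It also held 4 matches to CCAAT and 3 to GGGCGG, of which 1 of each lay after the start. Mvk had 5 matches to CCAAT, and 3.37% of all windows held 3 or more. Idi1 and Mvd had 2 matches to CCAAT each, 1 window of Pmvk had 1, and the other Pmvk window and that of Acat2 had none. A single match was common, since 37.4% of all windows held CCAAT and 35.7% held GGGCGG. The E-box CACGTG, found in 7.15% of all windows, was in none of the 7. These matches describe letters in a window and do not show binding. Mvk, with 5 CCAAT matches, had the smallest difference between fasted and fed livers of the 6 genes in both genotypes. Its signals were close to the array medians, where differences can be compressed. Whether this had a part in its small difference was not tested. A relation between matches and response was not tested.

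**Figure D1:**
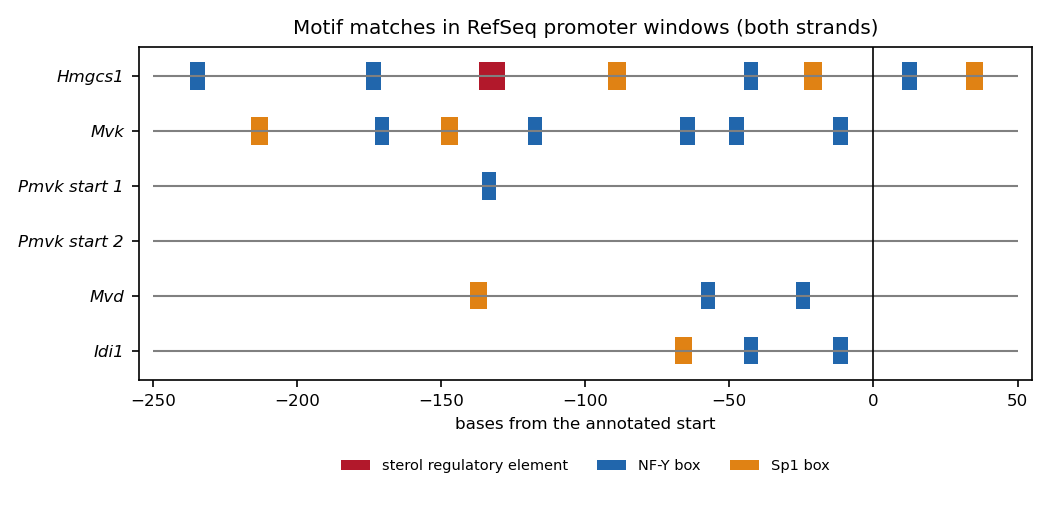
Positions of motif matches in the 6 RefSeq promoter windows of Hmgcs1, Mvk, Pmvk (2 starts), Mvd and Idi1, with distance from the annotated start in bases on the x axis and 1 row per window. Each mark is a match on either strand, and the row of Hmgcs1 alone holds the TCACNCCAC element, 137 bases before the start.

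Values are the authors' normalised log2 signals, and the log base is assumed, since the table does not state it. A log2 difference of 1 is a doubling of the signal. Differences are fasted minus fed or Mcl1(L-/-) minus WT, with the standard error (SE) of a limma model fitted to all 20 arrays and all probe sets. A gene is said to have changed where limma's Benjamini-Hochberg adjusted p over all 22206 probe sets was under 0.05. Array medians lay between 3.35 and 3.47, and pairs of arrays had r = 0.979 to 0.990 across probe sets within a group, against 0.958 to 0.989 between groups. Mcl1 itself averaged 6.14 ± 0.25 in fasted Mcl1(L-/-) livers and 7.28 ± 0.09 in fasted WT livers, and 6.09 ± 0.16 in fed Mcl1(L-/-) livers and 7.43 ± 0.15 in fed WT livers (SD, n = 5 each). Its signal in deleted livers was 45.4% of WT in the fast (limma adjusted p = 4.47e-06) and 39.5% with food (limma adjusted p = 5.07e-07), with no overlap of arrays. The exons that its probe set reads were not given. The 9 measured hepatocyte markers of 10 had a mean signal of 11.5 to 11.7 in every liver, whereas 11 of 12 lymphocyte markers and 7 of 10 cholangiocyte markers, averaged in the same way, stayed between 2.41 and 2.93, below the array medians. RNA came from whole liver, so fewer cells of a type and less RNA per cell cannot be told apart.

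Single livers stood apart in these genes, and each is given with the results it touches. Fasted WT replicate 4 was the lowest fasted WT liver for 5 of the 6 genes, fed WT replicate 2 the lowest fed WT liver for 5, and fed WT replicate 3 the highest fed WT liver for all 6. Fasted Mcl1(L-/-) replicate 3 was the highest of its group for 5 genes. No array was left out of the values below unless that is said.

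All 6 measured genes were lower in fasted than in fed livers lacking Mcl1. Every fasted Mcl1(L-/-) array lay below every fed Mcl1(L-/-) array for each of them, where 4.37% of all probe sets showed such a separation downwards. By the limma test 6 of 6 fell, against 6.25% of all probe sets that fell and 14.4% called in either direction. The median log2 difference of the 6 genes was -2.11, beside -0.00 over all probe sets. The falls ranged from 1.95-fold for Mvk to 10.3-fold for Idi1. In fasted WT livers the differences from fed WT livers were smaller for each gene, 4 of the 6 fell, and the arrays of fasted and fed livers overlapped for all but Fdps.

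**Figure D2:**
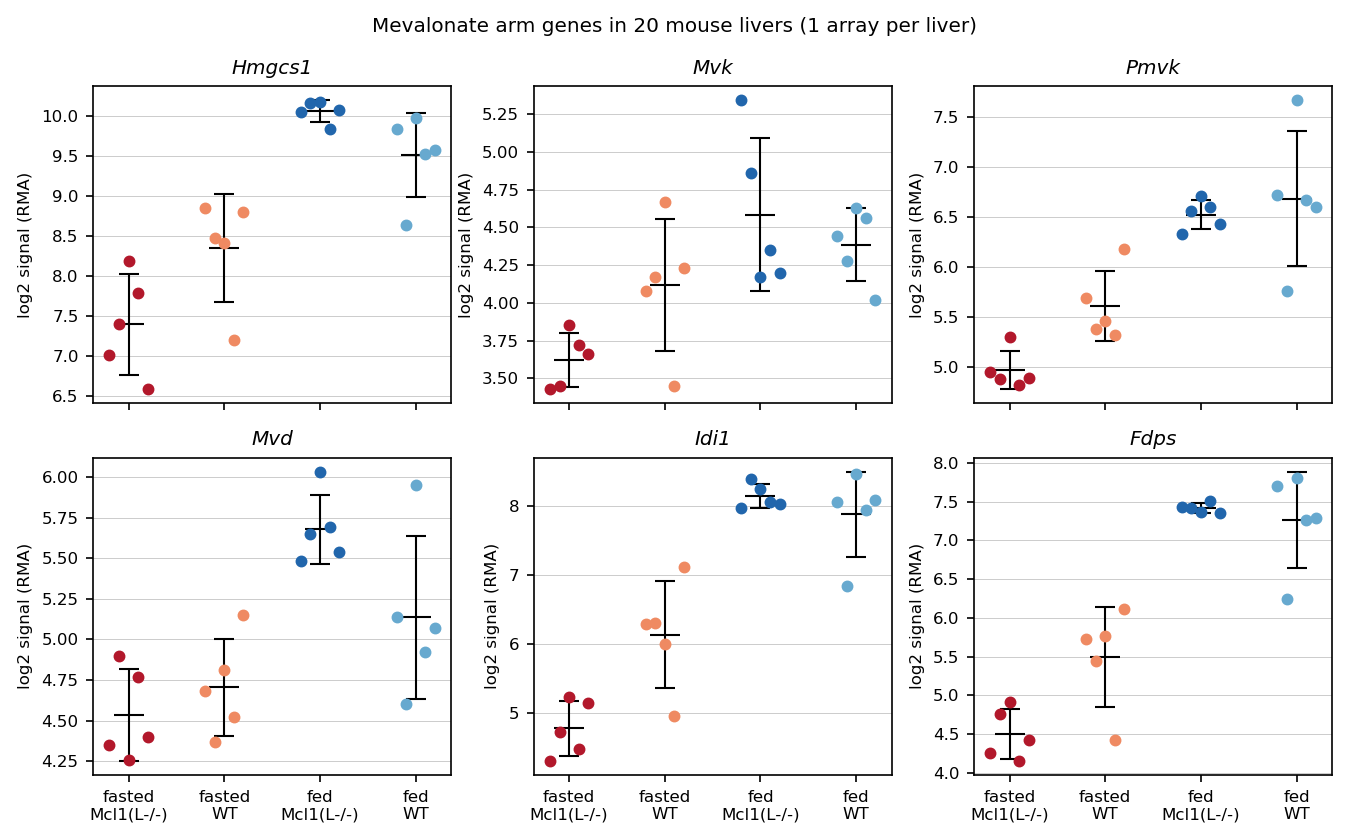
Log2 signal of each of the 6 genes in every liver, 1 panel per gene, with the groups in the order fasted Mcl1(L-/-), fasted WT, fed Mcl1(L-/-) and fed WT. Points are single mice, horizontal bars group means and error bars SD, and the fasted Mcl1(L-/-) points lie below all fed Mcl1(L-/-) points in each panel.

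Hmgcs1, whose product makes HMG-CoA for the cytosolic pathway, gave 7.01, 7.40, 8.19, 7.79 and 6.59 in fasted Mcl1(L-/-) livers, against 10.05, 10.16, 10.17, 9.84 and 10.07 in fed Mcl1(L-/-) livers. The fall was 6.34-fold (log2 -2.66, SE 0.29, limma adjusted p = 6.20e-07, n = 5 each). Even the highest fasted liver, replicate 3, stayed more than 1 log2 unit below the lowest fed one. In WT mice Hmgcs1 gave 8.85, 8.48, 8.41, 7.20 and 8.80 in fasted livers, against 9.84, 8.63, 9.97, 9.52 and 9.57 in fed livers, a 2.23-fold fall (log2 -1.16, SE 0.29, limma adjusted p = 0.0145). Here the groups overlapped, because fed WT replicate 2 read 8.63 and lay below fasted WT replicates 1 and 5. Without fed WT replicate 3 the WT call was lost at log2 -1.04 (limma adjusted p = 0.0502), and without fasted WT replicate 4 the difference was -0.87 (limma adjusted p = 0.0468).

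Mvk, the first of the mevalonate kinases, had signals close to the array medians. The robust multi-array average used by the authors can compress differences there. It gave 3.43, 3.45, 3.85, 3.72 and 3.66 in fasted Mcl1(L-/-) livers, against 5.34, 4.86, 4.17, 4.35 and 4.20 in fed Mcl1(L-/-) livers, and fell 1.95-fold (log2 -0.96, SE 0.21, limma adjusted p = 0.00173). The 2 groups did not overlap, but their nearest livers, at 3.85 and 4.17, were close, and fed replicates 1 and 2 stood above the other fed livers. In WT mice it gave 4.08, 4.17, 4.67, 3.45 and 4.23 in fasted livers, against 4.44, 4.28, 4.63, 4.56 and 4.02 in fed livers. The highest of these 10 livers was a fasted one, and the difference of -0.26 (95% interval -0.69 to 0.16, limma adjusted p = 0.587) did not pass the test. Without fasted WT replicate 4 it was -0.10.

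Pmvk, which adds the next phosphate, gave 4.95, 4.88, 5.30, 4.82 and 4.89 in fasted Mcl1(L-/-) livers, against 6.33, 6.56, 6.71, 6.60 and 6.43 in fed Mcl1(L-/-) livers. It fell 2.94-fold (log2 -1.56, SE 0.22, limma adjusted p = 2.32e-05), and all fasted livers were more than 1 log2 unit below all fed ones. In WT mice it gave 5.69, 5.38, 5.46, 5.32 and 6.18 in fasted livers, against 6.72, 5.76, 7.67, 6.67 and 6.60 in fed livers, a 2.11-fold fall (log2 -1.08, SE 0.22, limma adjusted p = 0.00292). Fed WT replicate 2 lay inside the fasted range and replicate 3 about 1 log2 unit above the rest of its group. Pmvk and Fdps are on chromosome 3, as is Mcl1 itself, with 151 protein-coding genes between Pmvk and Mcl1 and 179 between Fdps and Mcl1 in the RefSeq annotation. Hmgcs1 and Idi1 lie on chromosome 13, Mvk on chromosome 5 and Mvd on chromosome 8.

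Mvd, the decarboxylase that yields isopentenyl diphosphate, gave 4.35, 4.90, 4.26, 4.77 and 4.40 in fasted Mcl1(L-/-) livers, against 5.48, 5.65, 6.03, 5.69 and 5.54 in fed Mcl1(L-/-) livers. It fell 2.21-fold without overlap (log2 -1.14, SE 0.19, limma adjusted p = 0.000176). In WT mice it gave 4.68, 4.37, 4.81, 4.52 and 5.15 in fasted livers, against 5.14, 4.60, 5.95, 4.92 and 5.07 in fed livers. These ranges overlapped widely, and the difference of -0.43 (95% interval -0.83 to -0.03) missed the threshold after adjustment (unadjusted p under 0.05, limma adjusted p = 0.241).

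Idi1, the isomerase, had the widest difference of the 6 genes in Mcl1(L-/-) mice. It gave 4.31, 4.72, 5.23, 4.48 and 5.14 in fasted Mcl1(L-/-) livers, against 7.98, 8.40, 8.25, 8.06 and 8.03 in fed Mcl1(L-/-) livers, a 10.3-fold fall (log2 -3.37, SE 0.30, limma adjusted p = 2.43e-08). Counted from the most negative difference among the 22206 probe sets, Idi1 ranked 14, Fdps 26 and Hmgcs1 37. In WT mice Idi1 gave 6.29, 6.31, 6.0, 4.96 and 7.12 in fasted livers, against 8.06, 6.84, 8.47, 7.94 and 8.09 in fed livers. It fell 3.34-fold there (log2 -1.74, SE 0.30, limma adjusted p = 0.000392). The only overlap was between fasted replicate 5 and fed replicate 2, and fasted replicate 4 lay more than 1 log2 unit below the other fasted WT livers, inside the range of the fasted Mcl1(L-/-) livers.

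Fdps, the synthase of farnesyl diphosphate, gave 4.26, 4.76, 4.91, 4.16 and 4.43 in fasted Mcl1(L-/-) livers, against 7.43, 7.42, 7.36, 7.51 and 7.35 in fed Mcl1(L-/-) livers. The fall was 7.49-fold (log2 -2.91, SE 0.26, limma adjusted p = 3.68e-08). Fed livers lacking Mcl1 were close together here, with an SD of 0.06, against 0.32 to 0.65 in the other 3 groups. In WT mice Fdps gave 5.73, 5.45, 5.77, 4.42 and 6.12 in fasted livers, against 7.70, 6.24, 7.81, 7.26 and 7.29 in fed livers, a 3.39-fold fall (log2 -1.76, SE 0.26, limma adjusted p = 9.20e-05). It was the 1 gene of the 6 whose fasted and fed WT arrays did not overlap, where 3.81% of all probe sets were separated downwards in WT.

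In WT mice, then, Hmgcs1, Pmvk, Idi1 and Fdps fell, 4 of 6, against 3.68% of all probe sets that fell and 6.79% called in either direction. The median difference of the 6 was -1.12, beside 0.01 over all probe sets. Without fed WT replicate 3 the count was 3, with Hmgcs1 lost, and leaving out either fasted WT replicate 4 or fed WT replicate 2 kept it at 4. The median became -0.94 when the fasted liver was left out and -1.34 when the fed one was. All 6 calls in Mcl1(L-/-) mice held in each of the fits that left out 1 array.

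Some markers of other liver cells also passed the limma test between fasted and fed livers. Over all probe sets 8.2% rose and 6.25% fell with fasting in Mcl1(L-/-) mice, and 3.1% rose and 3.68% fell in WT mice. Counts of 1 gene in lists of this size are near these shares. Of 11 Kupffer cell markers 3 were lower in fasted than in fed Mcl1(L-/-) livers and 5 lower in fasted than in fed WT livers, and none was higher. Of 10 sinusoidal endothelial markers 2 were higher in fasted Mcl1(L-/-) livers, and 1 was higher and 2 lower in fasted WT livers. Among 9 measured stellate cell markers 1 was higher and 2 lower in fasted Mcl1(L-/-) livers, and 1 was lower in fasted WT livers. No cholangiocyte or lymphocyte marker passed the limma test in any comparison. Among 9 hepatocyte markers 2 were higher and 1 lower in fasted Mcl1(L-/-) livers, and 1 was higher in fasted WT livers. Their mean signal was 11.65 to 11.70 in fasted and 11.56 to 11.64 in fed Mcl1(L-/-) livers. These means lay near the highest signal on any array, 12.6, where a change in the share of hepatocytes may hardly show. The part of these cells in the differences of the mevalonate genes was not tested.

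**Figure D3:**
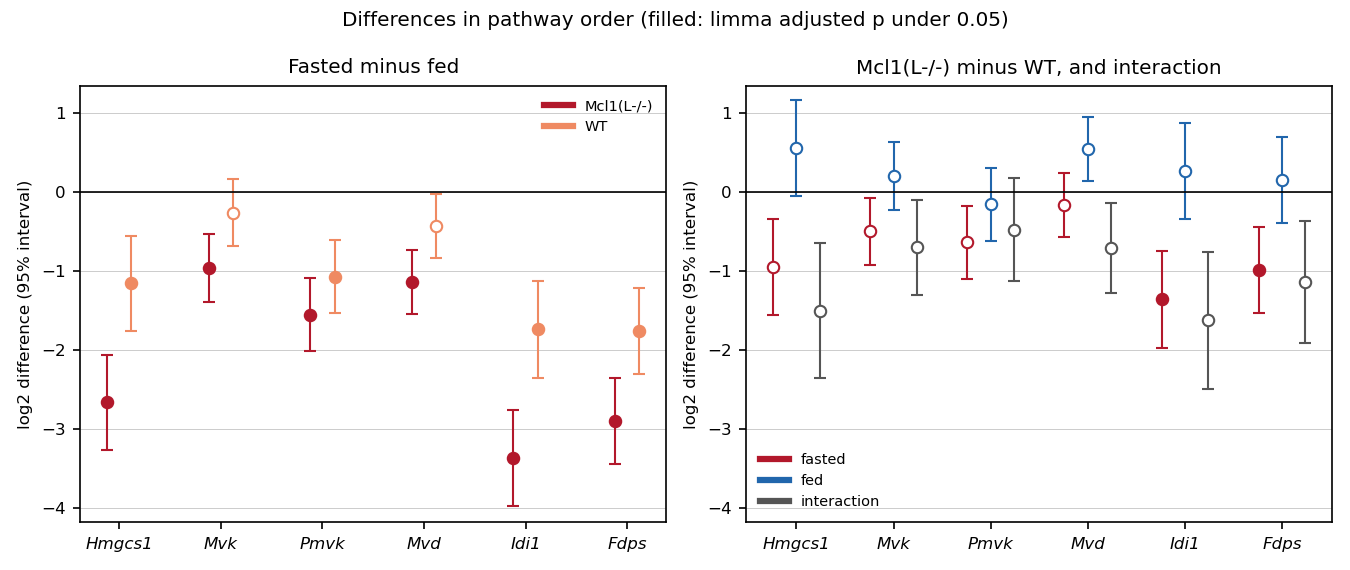
Log2 differences of the 6 genes in pathway order, with 95% intervals: fasted minus fed in Mcl1(L-/-) and WT mice (left), and Mcl1(L-/-) minus WT in fasted and fed mice with the interaction (right). Filled points passed the limma test at an adjusted p under 0.05, as all 6 did for fasting in Mcl1(L-/-) mice and none did for the interaction.

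The difference between the fasting responses of the 2 genotypes was tested as the interaction, fasting in Mcl1(L-/-) minus fasting in WT. None of the 6 genes passed limma's adjusted threshold, where 0.135% of all probe sets did, 30 in number and 12 of them lower. All 6 estimates were negative, with a median of -0.93 beside -0.01 over all probe sets. At an unadjusted p under 0.05 there were 5 of 6, against 11.2% of all probe sets, or 5.08% counting negative differences only. The estimates were -1.63 for Idi1 (SE 0.42, 95% interval -2.49 to -0.76, limma adjusted p = 0.0980), -1.51 for Hmgcs1 (SE 0.41, limma adjusted p = 0.124) and -1.14 for Fdps (SE 0.37, limma adjusted p = 0.215). Mvd at -0.71 (limma adjusted p = 0.302), Mvk at -0.70 (limma adjusted p = 0.348) and Pmvk at -0.48 (95% interval -1.13 to 0.18, limma adjusted p = 0.605) were smaller. The larger fall in livers without Mcl1 was therefore seen in the estimates and did not pass the test across the array. Without fasted WT replicate 4, Idi1 (log2 -1.92, limma adjusted p = 0.0287) and Hmgcs1 (log2 -1.79, limma adjusted p = 0.0394) passed, and the same 2 genes passed without fasted Mcl1(L-/-) replicate 3, at limma adjusted p = 0.0404 and 0.0297. Kupffer cell markers had interactions of the opposite sign, positive for 11 of 11 with a median of 0.59, of which 1 passed the limma test. Of 10 sinusoidal endothelial markers 9 were positive, with a median of 0.55, and none passed. Their part in the interactions of the mevalonate genes was not tested.

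Within fasted mice, Mcl1(L-/-) livers had lower mean signals than WT livers for all 6 genes. Idi1 averaged 4.77 ± 0.40 in fasted Mcl1(L-/-) livers and 6.14 ± 0.78 in fasted WT livers (SD, n = 5 each) and was 2.57-fold lower (log2 -1.36, SE 0.30, limma adjusted p = 0.00947). Fdps averaged 4.51 ± 0.32 in fasted Mcl1(L-/-) livers and 5.50 ± 0.65 in fasted WT livers, a 1.99-fold difference (log2 -0.99, SE 0.26, limma adjusted p = 0.0296). These were the 2 genes of 6 that fell, against 1.67% of all probe sets that fell and 4.99% called in either direction. The median over the 6 was -0.79, beside -0.02 over all probe sets. For both genes the groups overlapped, through fasted WT replicate 4, which read 4.96 for Idi1 and 4.42 for Fdps.

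The other 4 genes did not pass. Hmgcs1 averaged 7.40 ± 0.63 in fasted Mcl1(L-/-) livers and 8.35 ± 0.67 in fasted WT livers (log2 -0.95, 95% interval -1.55 to -0.35, limma adjusted p = 0.0609). Pmvk averaged 4.97 ± 0.19 in fasted Mcl1(L-/-) livers and 5.61 ± 0.35 in fasted WT livers (log2 -0.64, SE 0.22, limma adjusted p = 0.107). Pmvk was also the 1 gene of the 6 whose arrays did not overlap between the genotypes in the fast. Its nearest livers were very close, at 5.30 in fasted Mcl1(L-/-) and 5.32 in fasted WT mice. Of all probe sets 1.36% were separated downwards between the fasted genotypes. Mvk differed by -0.50 (95% interval -0.93 to -0.07, limma adjusted p = 0.181) and Mvd by -0.17 (95% interval -0.57 to 0.23, limma adjusted p = 0.730).

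Which genes passed in the fasted comparison depended on single arrays. Idi1 passed in all 20 fits that left out 1 array, with limma adjusted p up to 0.0305, and Fdps in 13 of 20, with limma adjusted p up to 0.0807. The Fdps call was lost without fasted WT replicate 1, 2, 3 or 5, or fasted Mcl1(L-/-) replicate 1, 4 or 5. Without fasted WT replicate 4, 3 genes passed, with Hmgcs1 at log2 -1.24 (limma adjusted p = 0.0102), and without fasted Mcl1(L-/-) replicate 3, also 3, with Hmgcs1 at log2 -1.15 (limma adjusted p = 0.0148). Without fed WT replicate 2, which enters only through the shared spread, 4 passed, adding Hmgcs1 (limma adjusted p = 0.0419) and Pmvk (limma adjusted p = 0.0441). Without fed WT replicate 3 Pmvk passed as well (limma adjusted p = 0.0373), making 3.

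Kupffer cell markers moved in the same comparison. Of 11 measured, 5 were higher in fasted Mcl1(L-/-) than in fasted WT livers, where 3.32% of all probe sets were higher, and none lower, with a median log2 difference of 0.68. Their mean signal lay between 5.03 and 5.80 in fasted Mcl1(L-/-) livers and between 4.49 and 4.94 in fasted WT livers. With food it lay between 5.46 and 5.84 in Mcl1(L-/-) livers and between 5.31 and 5.79 in WT livers. Of 9 stellate cell markers 2 were higher in fasted Mcl1(L-/-) livers and none lower. Their part in the differences of the mevalonate genes was not tested. Hepatocyte markers had a mean signal of 11.65 to 11.70 in fasted Mcl1(L-/-) livers and 11.65 to 11.74 in fasted WT livers, and 0 of 9 passed the limma test between them. A mean so near the highest signal on any array, 12.6, may hardly show a change in the share of hepatocytes.

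With food, no member differed between the genotypes after adjustment by limma, where 0.036% of all probe sets, 8 in number, did. At an unadjusted p under 0.05 there was 1 of 6, Mvd, against 6.44% of all probe sets. Mvd averaged 5.68 ± 0.21 in fed Mcl1(L-/-) livers and 5.14 ± 0.50 in fed WT livers (log2 0.54, 95% interval 0.14 to 0.94, limma adjusted p = 0.586). Hmgcs1 averaged 10.06 ± 0.13 in fed Mcl1(L-/-) livers and 9.51 ± 0.52 in fed WT livers (log2 0.55, 95% interval -0.05 to 1.16, limma adjusted p = 0.821). The intervals of the other 4 were -0.35 to 0.87 for Idi1, -0.39 to 0.69 for Fdps, -0.23 to 0.63 for Mvk and -0.62 to 0.30 for Pmvk, so differences of more than about 1 log2 unit lay outside them. Without fed WT replicate 2 the difference was -0.11 for Fdps, where it was 0.15 over all arrays, and without fed WT replicate 3 it was 0.09 for Pmvk, where it was -0.16.

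Across the 4 groups the order of the means was the same for 5 genes, with fasted Mcl1(L-/-) lowest, then fasted WT, then fed WT, and fed Mcl1(L-/-) highest. For Pmvk fed WT was highest, at 6.68 ± 0.68, beside 6.53 ± 0.15 in fed Mcl1(L-/-) livers. Neighbours in this order did not all differ beyond their spread. The fed groups passed the test for no gene, and the fasted groups differed past the threshold for Idi1 and Fdps. Fed WT and fasted WT livers, next to each other for those 5 genes, differed past the threshold for Hmgcs1, Idi1 and Fdps and not for Mvk or Mvd. They also differed past it for Pmvk, where the mean of fed Mcl1(L-/-) livers lay between them.

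**Figure D4:**
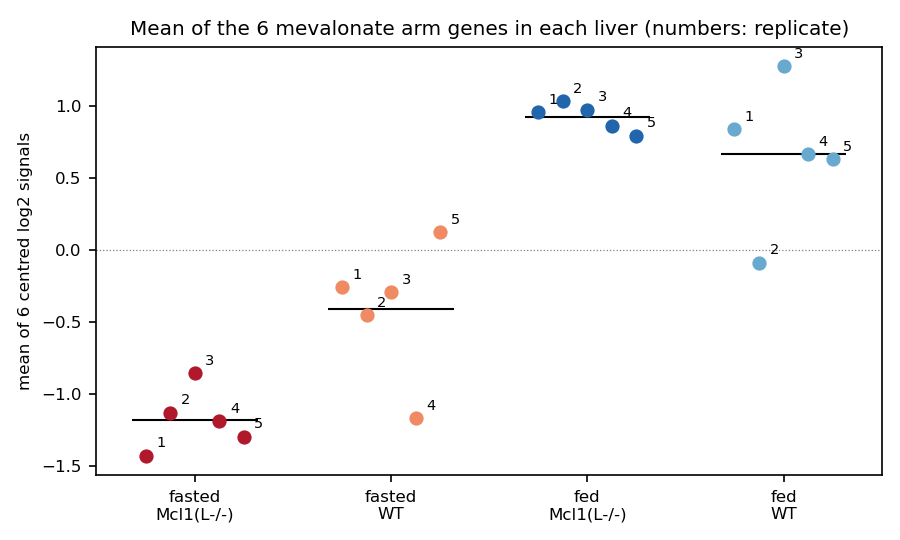
Mean over the 6 genes of the log2 signal centred on each gene's own mean over the 20 arrays, in each liver, with replicate numbers beside the points and group means as lines. Fasted Mcl1(L-/-) livers lie between -1.43 and -0.85 and fed Mcl1(L-/-) livers between 0.79 and 1.03, and fasted WT replicate 4, at -1.17, lies within the range of the fasted Mcl1(L-/-) livers.

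Livers of a group differed in the mean of the 6 genes, and not every gene followed it. Fasted Mcl1(L-/-) replicate 3, highest of its group for 5 genes, was the lowest for Mvd at 4.26. Fed Mcl1(L-/-) replicate 1, highest for Mvk at 5.34, was the lowest for Pmvk, Mvd and Idi1. The mean of the 6 centred signals was -1.43, -1.13, -0.85, -1.19 and -1.29 in fasted Mcl1(L-/-) livers, and -0.26, -0.45, -0.29, -1.17 and 0.12 in fasted WT livers. It was 0.95, 1.03, 0.97, 0.86 and 0.79 in fed Mcl1(L-/-) livers, and 0.84, -0.09, 1.27, 0.67 and 0.63 in fed WT livers. The fasted WT livers thus spanned the gap between fasted livers without Mcl1 and fed livers, with replicate 4 inside the range of fasted Mcl1(L-/-) livers and replicate 5 above the fed WT liver at -0.09. The SD between livers was 0.21 in fasted Mcl1(L-/-), 0.47 in fasted WT, 0.09 in fed Mcl1(L-/-) and 0.49 in fed WT mice. For 5 of the 6 genes fed Mcl1(L-/-) was the group with the smallest SD, the exception being Mvk, where its SD of 0.50 was the highest. The limma model gives all groups 1 spread per gene. When each comparison was fitted on its own 2 groups, all 6 fasting calls in Mcl1(L-/-) mice and all 4 in WT mice held, and the fasted comparison of genotypes kept Idi1 and lost Fdps (limma adjusted p = 0.0670).

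Genes with the most similar pattern over the 20 arrays were mostly later sterol enzymes. Likeness was measured as the root-mean-square distance between a gene's centred log2 signals and the mean of the 6. The 8 nearest genes were Dhcr7 at 0.280, Msmo1 at 0.288, Fdft1 at 0.304, Echdc1 at 0.317, Rdh11 at 0.333, Sc5d at 0.334, Cyp51 at 0.344 and Cyb5b at 0.352. Among them Dhcr7, Msmo1, Fdft1, Sc5d and Cyp51 act between farnesyl diphosphate and cholesterol. The members' own distances from this mean, to which each contributes, ran from 0.279 for Pmvk to 0.591 for Mvk. Taken singly, Cyp51 was the nearest gene to both Fdps, at 0.256, and Idi1, at 0.380, Msmo1 to Hmgcs1 at 0.294, Acss2 to Pmvk at 0.291, Gsdmd to Mvd at 0.288 and Ifi213 to Mvk at 0.279. Closeness on this scale depends on the amplitude of a gene as well as on the shape of its pattern.

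The enzymes from farnesyl diphosphate to cholesterol, the next stretch of the pathway, fell in the same comparisons. Of 10 measured genes among 12, 9 fell with fasting in Mcl1(L-/-) mice, 8 with fasting in WT mice, 5 between fasted Mcl1(L-/-) and fasted WT livers and none between the fed genotypes, and none rose in any of these. Their medians were -1.79, -1.04, -0.94 and 0.19, next to -2.11, -1.12, -0.79 and 0.23 for the mevalonate genes. Of all probe sets 6.25%, 3.68%, 1.67% and 0.0135% fell in these 4 comparisons, in the same order. Sqle, the epoxidase that forms the sterol precursor squalene epoxide, fell 19.5-fold in fasted Mcl1(L-/-) livers (log2 -4.29, limma adjusted p = 1.91e-08) and by 1.80 on the log2 scale in fasted WT livers (limma adjusted p = 0.00272). In 4 of the 5 fasted Mcl1(L-/-) livers Sqle read 2.51 to 2.89, below the array medians and in the range of the lymphocyte and cholangiocyte marker means. This fold, and the interaction that rests on the same signals, can therefore understate the change. Nsdhl, a sterol dehydrogenase of this stretch, fell 11.4-fold in fasted Mcl1(L-/-) and 4.52-fold in fasted WT livers. Hsd17b7, a later reductase, passed in neither, at -0.16 in Mcl1(L-/-) and 0.06 in WT mice.

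Fdft1, squalene synthase, uses the farnesyl diphosphate that Fdps makes and was the 1 sterol enzyme whose interaction passed. It averaged 6.96 ± 0.30 in fasted Mcl1(L-/-) livers and 8.01 ± 0.21 in fasted WT livers, and 8.72 ± 0.12 in fed Mcl1(L-/-) livers and 8.55 ± 0.29 in fed WT livers (SD, n = 5 each). The 5 fasted Mcl1(L-/-) livers, at 6.57 to 7.39, lay below the 5 fasted WT livers, at 7.65 to 8.18. It fell 3.38-fold with fasting in Mcl1(L-/-) mice and 1.45-fold in WT mice, and the interaction was -1.22 (SE 0.21, limma adjusted p = 0.0163). Sqle had the larger interaction, -2.49, and missed the threshold (SE 0.52, limma adjusted p = 0.0502).

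**Figure D5:**
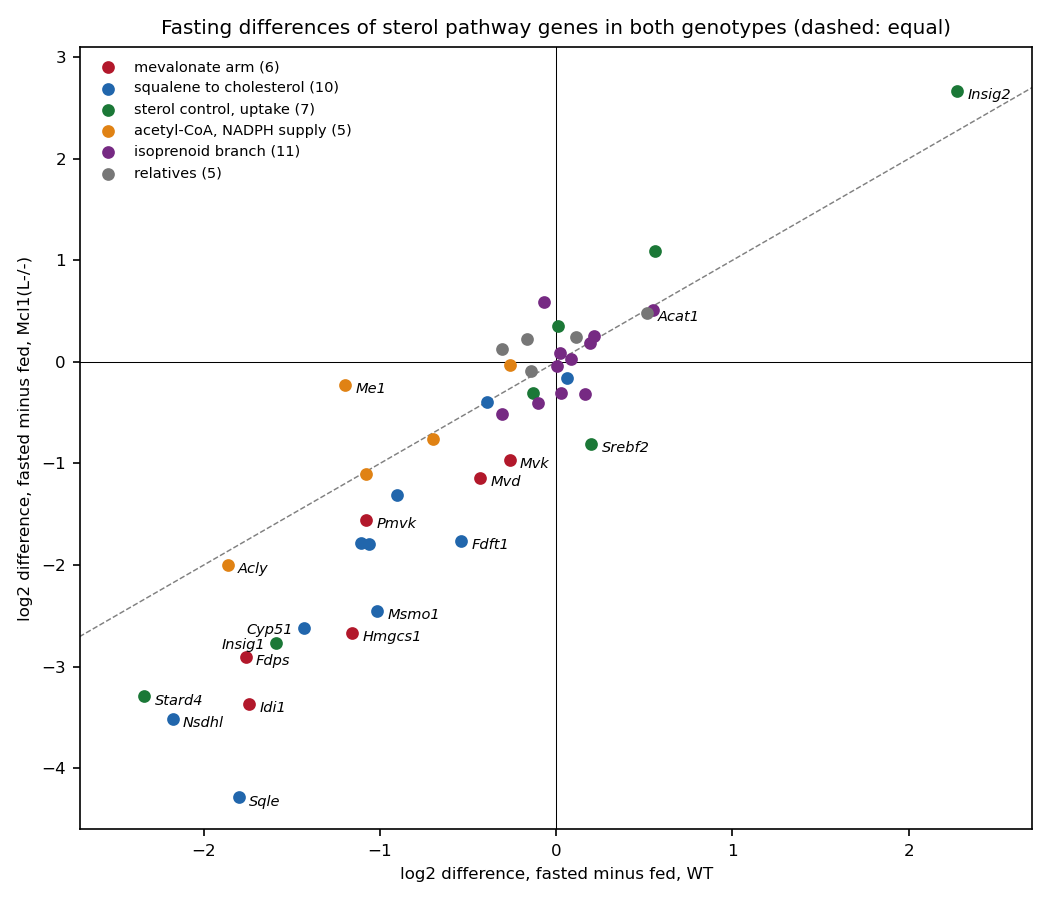
Fasting difference of each measured gene of 6 sterol-related lists, with WT on the x axis and Mcl1(L-/-) on the y axis, both as log2 fasted minus fed. Points below the dashed line of equality, as are all 6 mevalonate genes, had the more negative difference in Mcl1(L-/-) mice, and Acly lies close to the line.

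Genes of the sterol-sensing machinery went both ways. Srebf2, which encodes SREBP-2, averaged 6.99 ± 0.18 in fasted Mcl1(L-/-) livers and 7.61 ± 0.32 in fasted WT livers, and 7.80 ± 0.08 in fed Mcl1(L-/-) livers and 7.41 ± 0.35 in fed WT livers. It fell with fasting in Mcl1(L-/-) mice (log2 -0.81, SE 0.15, limma adjusted p = 0.000555) and was 0.20 higher in fasted than in fed WT livers without passing (limma adjusted p = 0.584). It was lower in fasted Mcl1(L-/-) than in fasted WT livers (log2 -0.62, limma adjusted p = 0.0203), and its interaction of -1.01 missed the threshold (limma adjusted p = 0.0598). The fasted call of Srebf2 held in 15 of 20 fits that left out 1 array, with limma adjusted p up to 0.0569, and was lost without fasted WT replicate 1 or 5 or fasted Mcl1(L-/-) replicate 1, 2 or 5. Insig1, itself a known SREBP target, fell 6.82-fold in fasted Mcl1(L-/-) and 3.01-fold in fasted WT livers. Insig2, which also retains SREBP in the endoplasmic reticulum and is known to rise in fasted liver, rose 6.35-fold in Mcl1(L-/-) and 4.84-fold in WT mice. It was also higher in fasted Mcl1(L-/-) than in fasted WT livers (log2 0.96, limma adjusted p = 0.0215), a call that held in 16 of 20 such fits and was lost without fasted WT replicate 4 or fasted Mcl1(L-/-) replicate 1, 2 or 5 (limma adjusted p up to 0.0672). Stard4, a sterol carrier and SREBP target, fell by 3.29 on the log2 scale in fasted Mcl1(L-/-) and by 2.34 in fasted WT livers. In all, of 7 measured genes among 11 on this list, 2 rose and 3 fell in fasted Mcl1(L-/-) livers, and 1 rose and 2 fell in fasted WT livers. The shares over all probe sets were 8.2% and 6.25% in Mcl1(L-/-) mice, and 3.1% and 3.68% in WT mice.

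The enzymes that supply acetyl-CoA and NADPH to lipid synthesis also fell with fasting. Of 5 measured among 6, 3 fell in Mcl1(L-/-) mice and 4 in WT mice, against 6.25% and 3.68% of all probe sets. Acly, which makes cytosolic acetyl-CoA from citrate, fell 3.99-fold in fasted Mcl1(L-/-) and 3.64-fold in fasted WT livers, with an interaction of -0.13 (95% interval -0.59 to 0.33, limma adjusted p = 0.888). Acss2, which makes it from acetate, fell by 1.10 on the log2 scale in Mcl1(L-/-) and by 1.08 in WT mice, with an interaction of -0.03 (95% interval -0.53 to 0.48). These intervals exclude differences as wide as the estimates of Idi1 and Hmgcs1, -1.63 and -1.51, which themselves did not pass the test. The interactions of these genes were not tested against each other. Me1, a source of NADPH, differed by -0.23 with fasting in Mcl1(L-/-) mice (limma adjusted p = 0.565) and fell by 1.20 in WT mice (limma adjusted p = 0.000257). Its interaction of 0.97 did not pass (limma adjusted p = 0.143). All comparisons within a genotype or feeding state share arrays with others: fasted Mcl1(L-/-) livers enter both the fasting comparison of that genotype and the fasted comparison of genotypes.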

How the data were processed

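Values are log2 signals in 1 table that the authors deposited, made by RMA (robust multi-array average: background correction, quantile normalisation, probe summary) with Partek 7.0, per the submitters' processing notes. The log base, RMA settings, annotation version and array build were not stated there, so folds assume log2. Quantile normalisation hides a shift shared by most transcripts. RNA was isolated with Trizol and amplified with the GeneChip WT PLUS kit, per the labels' protocols. Of the 22206 probe sets 19572 had 1 gene symbol and 2634 had none in the platform annotation. None of the 20 arrays was left out.

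The test was limma 3.58.1 under R 4.3.3: 1 mean per group, all 20 arrays, eBayes moderation (prior df 6.95), Benjamini-Hochberg adjustment over all probe sets and a threshold of 0.05. The steps were tested on simulated data. Figures were drawn with matplotlib 3.10.9. The members, the 12 gene lists (119 symbols, 101 measured) and the tests were chosen with earlier results of these data known. From each list other than the members, up to 3 called genes per direction and contrast with the largest differences were eligible to be named, or up to 2 where none was called, besides Mcl1 and the genes nearest to the members in pattern. For cell type marker lists, only counts and mean levels are given. Hmgcs1, Mvk, Pmvk, Mvd and Idi1 promoters, and that of Acat2, came from RefSeq tables on GRCm38.p6.

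Replicate numbers did not pair the arrays: of 30 same-numbered pairs of arrays, 1 had deviations from the group means that correlated above 0.1 (median r -0.02). Alternatives were median centring or repeated quantile normalisation, other moderation, weighting of arrays, leaving out dim probe sets, requiring a 2-fold change, fits on the compared groups only, a replicate block, the mean over probe sets and leaving out each array in turn. The number of arrays limits the precision.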

Additional observations from a re-analysis of the deposited data

Results flagged for a closer look

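Dixon's test for 1 sample apart from the rest of its group of 5 was applied to 25 genes in 4 groups, which is 100 combinations, and 6 exceeded the 95% critical value of 0.71. Chance alone flags about 1 in 20. Fasted WT replicate 4 was low for Hmgcs1 at 7.2, where the other fasted WT livers read 8.41 to 8.85. The same liver was low for Nsdhl at 5, beside 7.03 to 7.63, and for Msmo1 at 4.24, beside 6.01 to 6.08. Fasted Mcl1(L-/-) replicate 3 was high for Pmvk at 5.3, where the others read 4.82 to 4.95, and for Sqle at 4.14, beside 2.51 to 2.89. Fed WT replicate 2 was low for Msmo1 at 5.73, beside 6.82 to 7.12.

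The interaction of Fdft1, -1.22, passed the test of the difference between the fasting responses of Mcl1(L-/-) and WT mice. It was between -1.33 and -1.10 when each array was left out in turn, with limma adjusted p up to 0.0448, and lost its call without moderation of the spread.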

How the results depend on the processing

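All 6 falls with fasting in Mcl1(L-/-) mice passed the adjusted threshold under each of 29 alternatives, as did those of Pmvk, Idi1 and Fdps in WT mice. The mean over probe sets is among the 29 and is no separate check, since each of the 6 genes has 1 probe set. With a 2-fold change required besides, 5 of the 6 counted in Mcl1(L-/-) mice, without Mvk at 1.95-fold. Hmgcs1 in WT mice lost its call without moderation (ordinary t-test of the same model, adjusted p = 0.0555) and without fed WT replicate 3. With a 2-fold change required, 668, 336 and 158 probe sets passed for fasting in Mcl1(L-/-) mice, fasting in WT mice and the fasted comparison of genotypes. The fasted comparison called 1 mevalonate gene when a 2-fold change was required, with trend and robust moderation, without moderation or on the compared groups only, and the last 2 gave 700 and 399 probe sets. Hmgcs1 passed there after repeated quantile normalisation (limma adjusted p = 0.0442), with array weights (limma adjusted p = 0.0330) and without dim probe sets (limma adjusted p = 0.0437). The fed comparison gave 15 probe sets with trend and robust moderation, 4 without moderation and 26 with array weights. The interaction gave 3 without moderation, 55 with array weights and 51 without dim probe sets, and no mevalonate gene under any of these. Leaving out 1 array at a time gave 2689 to 3418 probe sets for fasting in Mcl1(L-/-) mice, 1124 to 1580 for fasting in WT, 497 to 1707 for the fasted comparison (1 to 4 mevalonate genes), 7 to 16 for the fed comparison and 9 to 331 for the interaction (0 to 2 mevalonate genes). The 1707 and 331 came without fasted Mcl1(L-/-) replicate 3, the 497 without its replicate 2 and the 9 without fasted WT replicate 2. Signs turned, always far from the threshold, for Mcl1 with fasting in Mcl1(L-/-) mice (-0.037 to 0.12) and between fed genotypes for Fdps (-0.11 to 0.29) and Pmvk (-0.39 to 0.088). The fasted comparison split into 738 higher and 371 lower probe sets, 561 and 459 after repeated quantile normalisation, and 880 and 272 after median centring. The interaction split into 18 and 12, 17 and 18, and 27 and 11. With the replicate block 3045, 1375, 924, 8 and 20 probe sets passed in the order above, and 6, 4, 2, 0 and 0 mevalonate genes. Of 137 summary values under alternatives other than leaving out an array, 122 stayed close to the main value. Counts had to come within 1.5 times of it, or stay at 0. Medians of the mevalonate genes had to move by less than 0.36, the pooled SD within groups of the mean of the 6 genes. The cause of these shifts was not tested. Signals near the array medians, as for Mvk, may limit what can be seen of small changes.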

Other observations

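In the branch that uses farnesyl diphosphate for ubiquinone, dolichol and protein prenylation, changes with fasting in Mcl1(L-/-) mice went both ways. Of 11 measured genes among 13, 2 rose and 1 fell with fasting in Mcl1(L-/-) mice and 1 rose in WT mice, with median log2 differences of 0.03 and 0.02. These counts lie beside 8.2% of all probe sets that rose and 6.25% that fell in Mcl1(L-/-) mice. In WT mice 3.1% rose, and a count of 1 gene of 11 is near such shares. Counting both directions, 3 of 11 passed in Mcl1(L-/-) mice, against 14.4% of all probe sets. Nus1, a subunit of the enzyme that makes dolichol precursors, rose by 0.51 in fasted Mcl1(L-/-) livers (limma adjusted p = 0.00208) and by 0.55 in fasted WT livers (limma adjusted p = 0.00227). Fnta, the subunit shared by the farnesyl and geranylgeranyl transferases, rose by 0.59 in fasted Mcl1(L-/-) livers (limma adjusted p = 0.00593) and differed by -0.07 in fasted WT livers (limma adjusted p = 0.885). Coq2, which attaches the polyprenyl tail of ubiquinone, fell by 0.52 in fasted Mcl1(L-/-) livers (limma adjusted p = 0.00852).

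Acat1, the mitochondrial relative of Acat2 that serves ketone body metabolism, rose with fasting in both genotypes, by 0.49 in Mcl1(L-/-) mice (limma adjusted p = 0.00983) and by 0.52 in WT mice (limma adjusted p = 0.0123). Its interaction was -0.03 (95% interval -0.41 to 0.34). Of 5 measured mitochondrial and peroxisomal relatives among 7, it was the 1 that passed in either genotype. Of all probe sets 14.4% passed in Mcl1(L-/-) and 6.79% in WT mice. Mylip, which promotes degradation of the LDL receptor, rose by 1.09 in fasted Mcl1(L-/-) livers (limma adjusted p = 0.000222) and was 0.56 higher in fasted than in fed WT livers without passing (limma adjusted p = 0.0866).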
